A study of Rattus norvegicus with 36 samples.

Results

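Whole lungs of newborn Brown Norway rats were compared with those of newborn Lewis rats on postnatal day 1 (PN1). The comparison used the 5 arrays titled Brown Norway PN1 and the 3 arrays titled Lewis PN1, which are 8 of the 36 arrays of the series, and covered every gene measured on the array. The series profiled total RNA of Brown Norway, Fisher and Lewis lungs at PN1, PN7 and PN14 to ask how genetic background shapes gene expression in developing lung, with asthma susceptibility in view. The labels give no treatment, transgene or sex for any group, and whether each replicate is another animal is not said. The p-values come from a model of all 36 arrays and rest on the variation between replicates pooled over its groups, which may be technical. All values below are log2 intensities after normalisation unless stated otherwise, and every difference is Brown Norway minus Lewis.

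The rat is born with an immature lung. In the days after birth the air sacs are divided by new septa, a process that needs dividing fibroblasts, endothelial and epithelial cells and the deposition of elastin and collagen, while type II cells secrete surfactant. Glucocorticoids rise around birth and are known to slow cell division and to promote maturation in this tissue. Brown Norway rats mount strong allergic airway responses and serve as a model of asthma, and Lewis rats are widely used as a strain that responds less.

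The lung label held on all 8 arrays. The surfactant protein genes Sftpc, Sftpb and Sftpa1 and the club cell secretoglobin gene Scgb1a1 were detected on each. Sftpc read 14.45, 14.50, 14.40, 14.62 and 13.97 in Brown Norway lungs, against 14.56, 14.57 and 14.51 in Lewis lungs. For Scgb1a1 the values were 15.98, 15.98, 15.94, 15.93 and 16.08 in Brown Norway lungs, against 16.08, 16.06 and 15.98 in Lewis lungs, close to the top of the scale, which limits how far it can differ. The arrays detected between 9451 and 10434 probes each (detection p below 0.01), and their median raw signals lay between 221.6 and 261. Replicates correlated at 0.995 to 0.998 within Lewis, and at 0.978 to 0.992 among the first 4 Brown Norway arrays. Brown Norway replicate 5 had a correlation of 0.974 with its own group's mean, against 0.997 with that of Brown Norway PN14, and it was hybridised on slide 3 while the other 7 arrays shared slide 1. It was kept under its label, and the counts and the results it changes are also given without it, which makes the comparison one within a slide. The array labelled Brown Norway PN14 replicate 3 lay among the PN1 arrays in turn, and the counts against the later ages are also given without both arrays. PN14 differences and tests against the later ages that are given for single genes include it. Its mean over the class I presentation genes was 10.38, against 10.76 to 10.98 on the other Brown Norway PN14 arrays. For the glucocorticoid response genes it was 12.18, against 11.49 to 11.65. In RNA of whole lung, fewer cells of a type and less RNA per cell cannot be told apart, which holds for every difference below.

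At PN1 the strains differed widely. Of 11339 tested probes, 3511 (31%) passed an adjusted p of 0.05 in limma, with 1508 (13.3%) higher and 2003 (17.7%) lower in Brown Norway. Without replicate 5 there were 4165 (36.7%), with 1865 (16.4%) higher and 2300 (20.3%) lower. Counts of called genes in the gene lists below are to be read beside these shares. A total of 3320 probes were called both ways with the same sign, 191 were called only with replicate 5, 845 only without it, and 0 changed sign. On 1167 probes (10.3%) every Brown Norway array lay above every Lewis array, and on 1707 (15.1%) every one lay below. Without replicate 5 these shares were 16.9% and 21.6%. The balance of higher and lower calls depended on the scaling: with median scaling in place of quantile normalisation 858 probes were higher and 619 lower. With a model of the 8 arrays alone, 450 were higher and 936 lower.

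A group of genes stood above Lewis in Brown Norway at PN1 and at both later ages. RT1-CE16, a class I histocompatibility gene, read 10.88, 11.15, 11.16, 11.20 and 11.56 in Brown Norway lungs, against 8.08, 8.08 and 8.09 in Lewis lungs. It was detected on 0 of 3 Lewis arrays and was at least 8.23-fold higher in Brown Norway (adjusted p = 2.45e-19). A second class I gene, RT1-A1, read 13.85, 13.95, 13.83, 14.14 and 14.69 in Brown Norway lungs, against 11.88, 11.85 and 11.91 in Lewis lungs. The groups of both genes were far apart, and the RT1-A1 difference was 2.21 (SE 0.14) at PN1, 2.30 at PN7 and 1.82 at PN14. Cavin2, a coat protein of caveolae that is abundant in lung endothelium, read 11.63, 11.37, 11.57, 11.61 and 12.28 in Brown Norway lungs, against 8.60, 8.59 and 8.88 in Lewis lungs. Its difference of 3.00 (SE 0.15, adjusted p = 1.79e-15) made it 8.03-fold higher in Brown Norway, with no overlap. Nfib, a transcription factor that the lung needs to mature before birth, read 12.64, 12.74, 12.53, 13.02 and 13.13 in Brown Norway lungs, against 10.38, 10.36 and 10.89 in Lewis lungs, a difference of 2.27 (SE 0.15). Ly6i, of the Ly6 family of surface proteins, read 10.62, 10.68, 10.55, 10.69 and 11.64 in Brown Norway lungs, against 8.25, 8.27 and 8.27 in Lewis lungs. On every Brown Norway array Ly6i was above every Lewis array, and replicate 5 was the highest. Ly6i differed by 2.58 at PN1, 2.31 at PN7 and 1.52 at PN14.

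**Figure D1:**
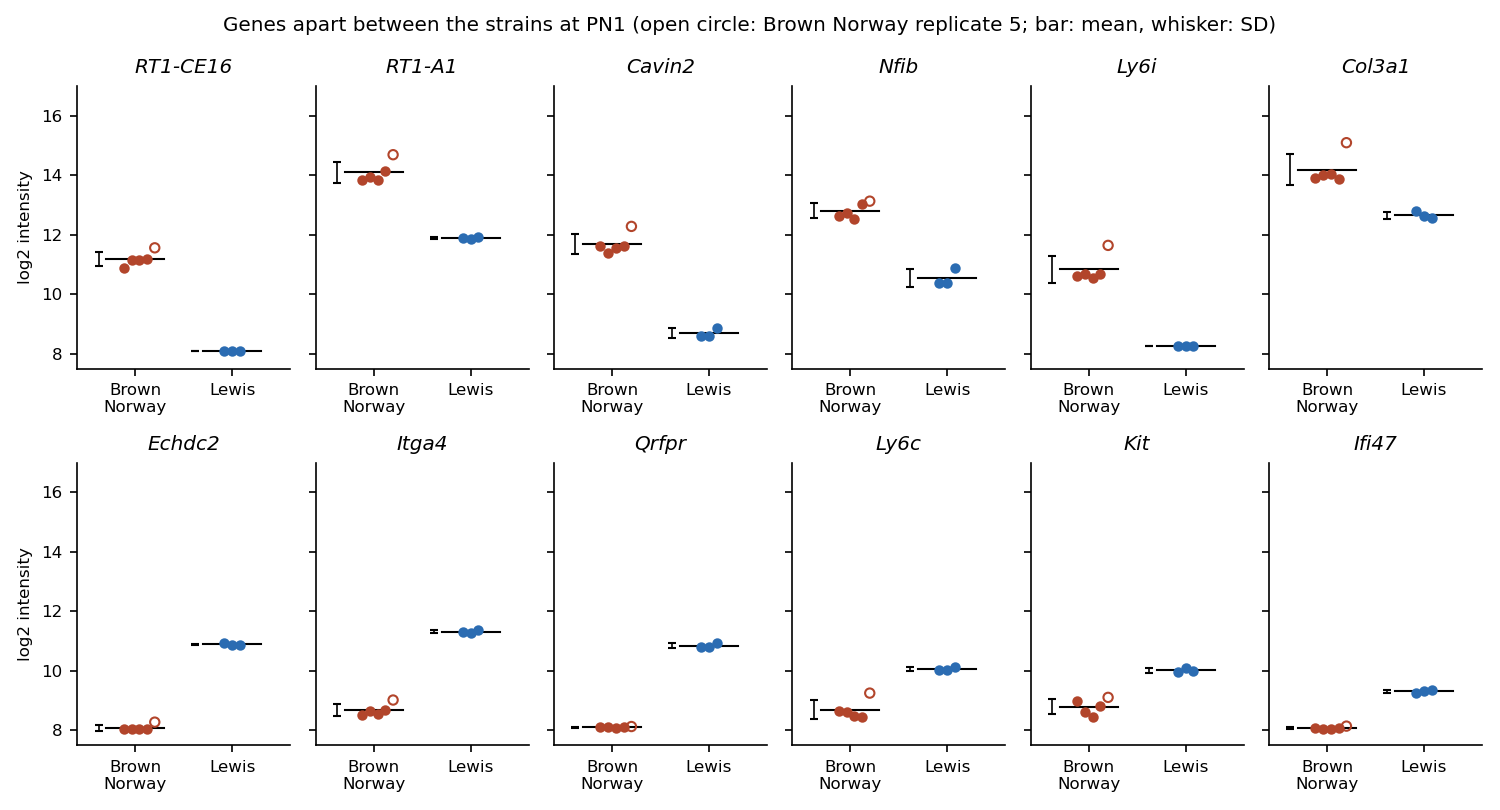
Normalised log2 intensity of 12 genes on the 5 Brown Norway and 3 Lewis PN1 arrays. Points are arrays, the open circle is Brown Norway replicate 5, the bar is the group mean and the whisker its SD. The 6 genes of the upper row were higher in Brown Norway and the 6 of the lower row lower, with no overlap between the groups in any panel.

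The largest differences between strains were on the Rpl30 and Mrpl18 probes, which were dim in Lewis and bright in both other strains. The Rpl30 probe, for a ribosomal protein, read 13.70, 13.69, 13.71, 13.93 and 13.73 in Brown Norway lungs, against 8.25, 8.30 and 9.41 in Lewis lungs, and it averaged 13.64 ± 0.11 in Fisher PN1 lungs (SD, n = 4). Mrpl18, for a protein of the mitochondrial ribosome, read 12.08, 12.18, 12.33, 12.31 and 12.31 in Brown Norway lungs, against 8.07, 8.10 and 8.25 in Lewis lungs, with a Fisher mean of 12.56. Lewis thus lay alone on both probes, and 1 of its 3 arrays detected Mrpl18. The same held for Bnip3, a mitochondrial cell death and mitophagy gene, which differed by 3.55 (SE 0.18) beside a Fisher mean of 11.58, for the endosomal gene Plekhf2 (3.47), the zinc finger gene Zcchc9 (2.76) and the splicing factor gene Bcas2 (2.35). The strains' sequences under these and the other probes named here were not compared. Rpl6, another ribosomal protein gene, showed the same order, at 15.68, 15.77, 15.80, 15.74 and 15.64 in Brown Norway lungs, against 14.81, 14.84 and 14.84 in Lewis lungs. Of 42 tested cytoplasmic ribosomal protein genes, 8 were higher and 3 lower, with a median difference of 0.05 against -0.0028 over all tested probes, so most of the family was not called.

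Genes lower in Brown Norway at every age included Echdc2, an enzyme related to enoyl-CoA hydratases, at 8.04, 8.03, 8.04, 8.03 and 8.27 in Brown Norway lungs, against 10.92, 10.86 and 10.87 in Lewis lungs. Brown Norway replicate 5 was the single Brown Norway array to detect it, so the fitted difference of -2.80 (SE 0.07, adjusted p = 2.68e-23) is against a group close to background. Qrfpr, the receptor of the neuropeptide QRFP, read 8.10, 8.11, 8.07, 8.09 and 8.12 in Brown Norway lungs, against 10.81, 10.78 and 10.94 in Lewis lungs. It was detected on 0 of 5 Brown Norway arrays and was at least 6.43-fold lower there. Itga4, the integrin chain with which leukocytes leave the blood, read 8.50, 8.65, 8.56, 8.68 and 9.01 in Brown Norway lungs, against 11.31, 11.26 and 11.36 in Lewis lungs, a difference of -2.63 (SE 0.10) with no overlap. The oxidoreductase gene Pyroxd2 (-2.25) and the hydrolase gene Bphl (-1.98) were lower to a like extent. Lgals5, a galectin of rat red cell precursors and macrophages, read 8.30, 8.69, 9.56, 8.37 and 9.19 in Brown Norway lungs, against 11.41, 11.86 and 10.68 in Lewis lungs. Although its arrays spread more widely, the groups did not overlap, and the difference of -2.50 at PN1 stood beside -3.13 at PN7 and -2.92 at PN14. Kit, the stem cell factor receptor found on mast cells and progenitors, read 8.97, 8.62, 8.46, 8.80 and 9.10 in Brown Norway lungs, against 9.94, 10.09 and 10.004 in Lewis lungs. All Brown Norway values of Kit were below all Lewis values, with a difference of -1.22 (SE 0.14, adjusted p = 1.48e-07), and the differences at PN7 and PN14 were -0.74 and -0.91.

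Many of the PN1 differences were not called at the later ages. The Brown Norway minus Lewis difference at PN1 was tested against the mean of the same difference at PN7 and PN14, in the same fit. It differed on 1916 probes (16.9%), with 730 (6.44%) more positive and 1186 (10.5%) more negative at PN1. Without the 2 arrays that lay in each other's group there were 3258 (28.7%), with 1395 (12.3%) more positive and 1863 (16.4%) more negative, and with median scaling 484. PN7 by itself gave 1728 called probes (15.2%), with 906 (7.99%) higher and 822 (7.25%) lower in Brown Norway. PN14 gave 1545 (13.6%), with 763 (6.73%) higher and 782 (6.9%) lower. Of the 172 probes that were at least 2-fold higher without replicate 5, 56 (32.6%) were also called higher at both PN7 and PN14, and 109 at neither age. The PN14 array that lay among PN1 was left out for this count. Of all 11339 tested probes, 354 (3.12%) were called higher at both ages and 9966 at neither. Later calls were thus more frequent among the 172 probes than over all tested probes. Of those at least 2-fold lower, 40 (31.7%) were called lower at both in the same way and 70 at neither, against 346 (3.05%) of all tested probes called lower at both. PN7 arrays lay on slide 2 and PN14 arrays on slide 3, apart from 1 Lewis array of each age, so age and slide cannot be told apart in this contrast, while each strain difference within an age compares arrays that mostly share a slide.

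**Figure D2:**
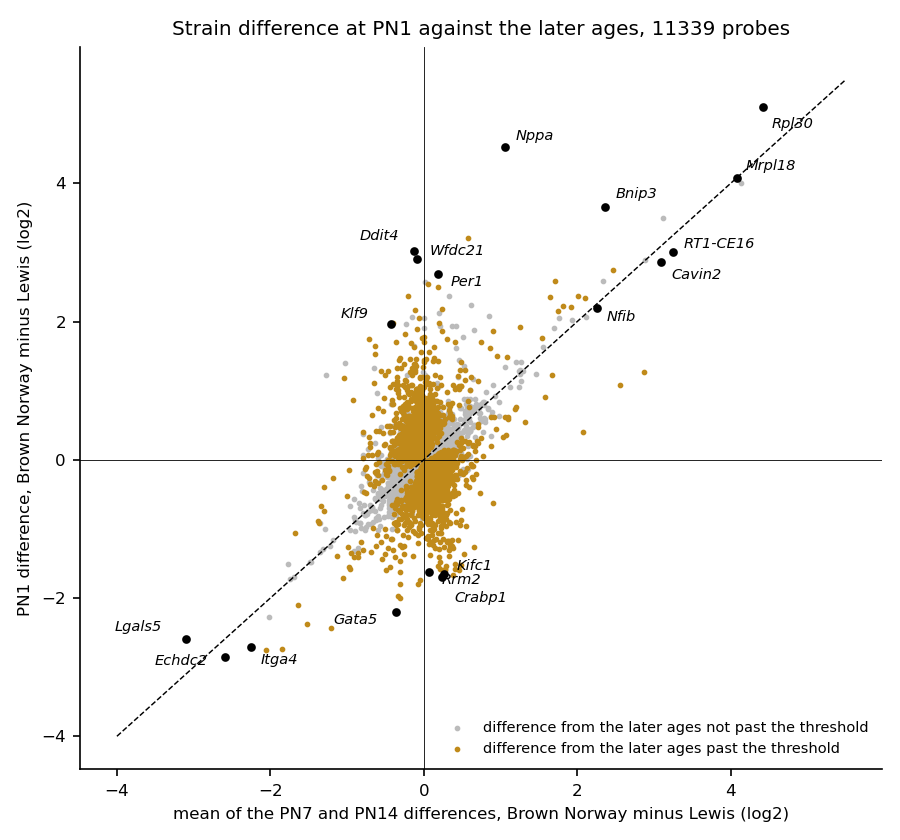
Each point is 1 of 11339 tested probes, with the PN1 difference between Brown Norway and Lewis on the vertical axis and the mean of the PN7 and PN14 differences on the horizontal axis, both in log2 and without the 2 arrays that lay in each other's group. Genes near the dashed line of equality, such as RT1-CE16, Nfib and Echdc2, had a PN1 difference like the mean of the PN7 and PN14 differences. For RT1-CE16 and Echdc2 the lower group at PN1 lay near background. Ddit4, Per1 and Kifc1 lie near 0 on the horizontal axis.

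The cell cycle genes were lower in Brown Norway as a body. Of 40 tested genes of a list that covers S phase, mitosis and their regulators, 35 were lower and 0 higher, both with and without replicate 5, and the median difference was -0.73. Against the later ages 36 were more negative at PN1 and 0 more positive. At PN7 the called genes had the opposite sign, with 17 genes higher in Brown Norway, 0 lower and a median difference of 0.26, and at PN14 1 was higher.

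Cdk1, the kinase that starts mitosis, read 10.48, 10.56, 11.38, 10.72 and 10.66 in Brown Norway lungs, against 12.28, 12.43 and 12.37 in Lewis lungs. Every Brown Norway array lay below every Lewis array, with a difference of -1.60 (SE 0.22, adjusted p = 2.25e-06). Rrm2, the subunit of ribonucleotide reductase made in S phase, read 9.04, 9.86, 10.91, 9.91 and 9.27 in Brown Norway lungs, against 11.48, 11.55 and 11.62 in Lewis lungs, a difference of -1.75 (SE 0.30). Brown Norway replicate 3 was the nearest to Lewis for both genes. The kinetochore gene Spc25 read 8.72, 8.81, 9.34, 8.82 and 8.67 in Brown Norway lungs, against 10.52, 10.51 and 10.51 in Lewis lungs, with 3 nearly equal Lewis arrays and a difference of -1.64 (SE 0.16). Ccna2, which encodes cyclin A2 (-1.64), the spindle assembly gene Tpx2 (-1.63) and the spindle motor genes Kifc1 (-1.72) and Kif22 (-1.55) were lower by a like amount. Mki67, the classical marker of dividing cells, had a dim probe at 8.31, 8.36, 8.37, 8.32 and 8.26 in Brown Norway lungs, against 8.73, 8.86 and 8.72 in Lewis lungs. Even there the groups were apart, by -0.44 (adjusted p = 4.78e-08). At PN7 the difference was 0.54 for Cdk1, 0.57 for Tpx2 and 0.21 for Mki67, of which Tpx2 (adjusted p = 0.0255) and Mki67 (adjusted p = 0.00225) were called. The mean over the 40 genes was 9.37 ± 0.16 in Brown Norway PN1 lungs and 10.15 ± 0.01 in Lewis PN1 lungs (SD, n = 5 and 3). By PN14 the same mean was 9.3 ± 0.21 in Brown Norway and 9.14 ± 0.04 in Lewis (SD, n = 4 each), so the Brown Norway mean at PN1 was near that of either strain at PN14. These Brown Norway means include the arrays that lay in each other's group, at 9.23 for PN1 replicate 5 and 9.53 for PN14 replicate 3. The other Brown Norway arrays read 9.24 to 9.64 at PN1 and 9.05 to 9.39 at PN14. Fisher PN1 lungs, at 10.6 ± 0.09 (SD, n = 4), were above both strains.

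**Figure D3:**
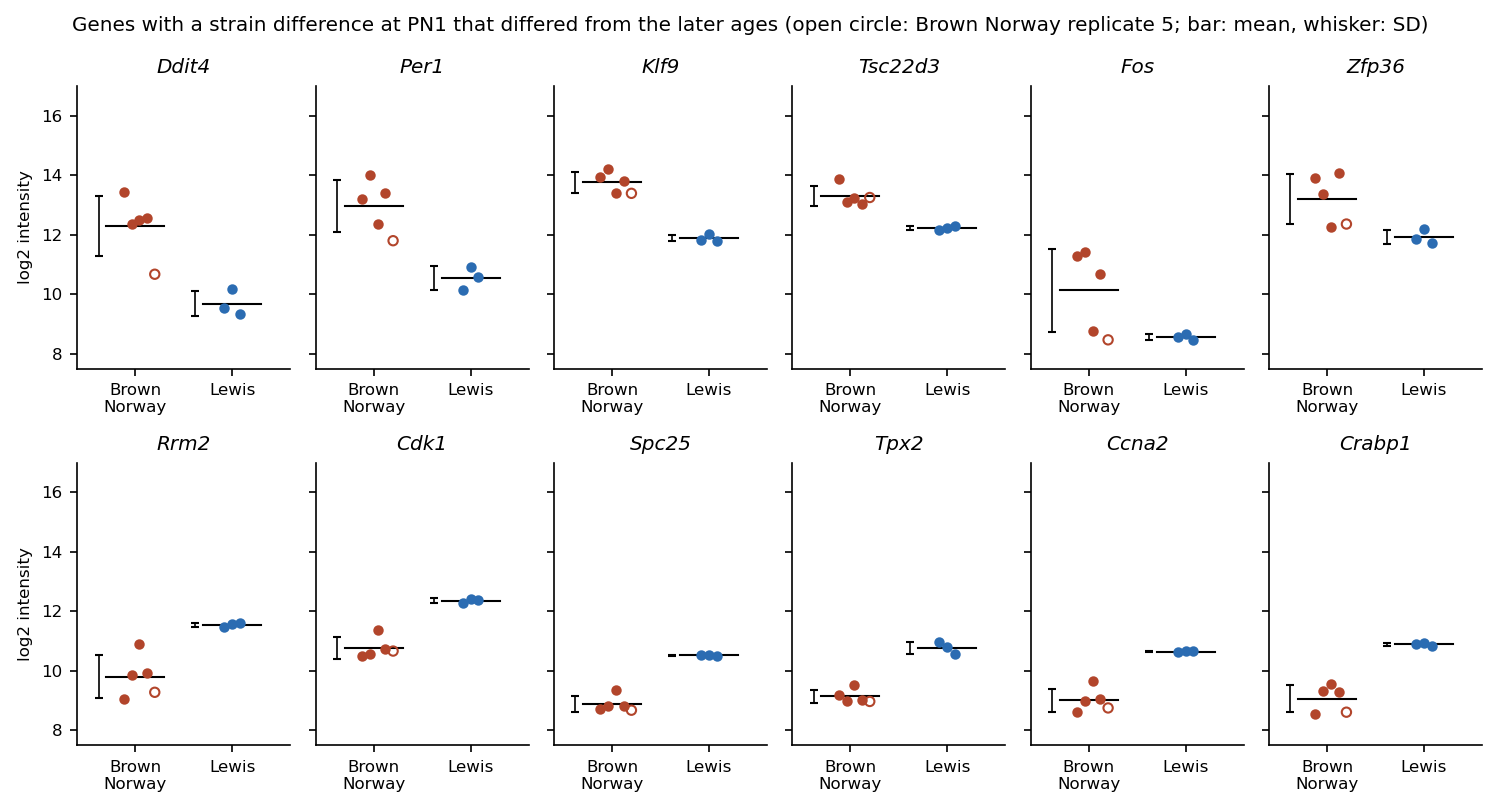
Normalised log2 intensity of 12 genes whose PN1 difference was tested against the later ages, on the 5 Brown Norway and 3 Lewis PN1 arrays (open circle, Brown Norway replicate 5; bar, mean; whisker, SD). The upper row shows glucocorticoid and immediate early genes, higher in Brown Norway with replicate 3 or 5 nearest to Lewis for Fos, and the lower row shows 5 cell cycle genes and Crabp1, lower on every Brown Norway array.

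Promoters of cell cycle genes are known for the cell cycle homology region, with the letters TTTGAA, through which the genes are repressed outside division, and for CCAAT boxes bound by NF-Y. Promoter windows of 300 bases (250 before and 50 after the start, RefSeq, build GRCr8) were available for 25 of the 35 genes that were lower without replicate 5. TTTGAA was found on either strand in 15 of them (60%), against 18.1% of all 27457 rat promoters, and CCAAT in 18 (72%), against 37.7%. The list was drawn up of cell cycle genes, so an excess over all promoters does not depend on the array values. Listed genes that were not called were not compared. A match is a description of letters and not a shown binding site. The windows of 3 cell cycle genes described above are given because they hold both TTTGAA and CCAAT, in capitals. They are printed 5′ to 3′ on the strand of the gene, with ATTGG and TTCAAA as the same motifs on the opposite strand. In the Mki67 window a TTTGAA and an ATTGG share a base. They lie at chr3:74396669-74396968 on the minus strand for Spc25, chr20:19265043-19265342 on the plus strand for Cdk1 and chr1:199952544-199952843 on the minus strand for Mki67.
Spc25: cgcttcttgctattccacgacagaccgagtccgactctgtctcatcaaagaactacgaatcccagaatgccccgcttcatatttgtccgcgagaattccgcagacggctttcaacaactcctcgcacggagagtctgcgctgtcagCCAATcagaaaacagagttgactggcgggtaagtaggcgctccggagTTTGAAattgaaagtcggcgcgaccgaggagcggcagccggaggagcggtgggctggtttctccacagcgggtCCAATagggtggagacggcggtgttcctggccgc
Cdk1: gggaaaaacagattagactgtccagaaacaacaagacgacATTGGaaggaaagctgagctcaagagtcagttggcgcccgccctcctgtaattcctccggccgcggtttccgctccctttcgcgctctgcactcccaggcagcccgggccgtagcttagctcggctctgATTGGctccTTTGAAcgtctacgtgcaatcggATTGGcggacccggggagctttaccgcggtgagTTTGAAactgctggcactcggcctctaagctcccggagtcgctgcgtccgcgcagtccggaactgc
Mki67: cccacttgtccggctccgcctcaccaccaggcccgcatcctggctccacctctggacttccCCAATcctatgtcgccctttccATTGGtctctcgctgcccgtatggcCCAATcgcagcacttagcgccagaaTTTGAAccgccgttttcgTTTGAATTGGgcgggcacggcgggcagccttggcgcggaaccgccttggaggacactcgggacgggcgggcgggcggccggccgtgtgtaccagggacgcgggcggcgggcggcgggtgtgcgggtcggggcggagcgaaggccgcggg

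Genes known to be induced by glucocorticoids were higher in Brown Norway at PN1. Of 16 tested, 10 were higher and 0 lower with all arrays, and 13 were higher without replicate 5, with median differences of 0.67 and 0.97. Against the later ages 9 were more positive and 0 more negative. At PN7 1 was higher and 1 lower. Ddit4, which restrains the growth kinase mTOR, read 13.42, 12.35, 12.51, 12.55 and 10.67 in Brown Norway lungs, against 9.54, 10.16 and 9.34 in Lewis lungs. Replicate 5 was the lowest Brown Norway array and still lay above Lewis, and the difference was 2.62 (SE 0.42, adjusted p = 1.85e-05), or 3.03 without it. At PN7 and PN14 Ddit4 differed by 0.05 and -0.01. Per1, a clock gene that glucocorticoids induce directly, read 13.21, 14.004, 12.37, 13.40 and 11.80 in Brown Norway lungs, against 10.14, 10.93 and 10.58 in Lewis lungs, a difference of 2.41 (SE 0.42, adjusted p = 6.21e-05). Klf9, a transcription factor induced in the same way, read 13.95, 14.21, 13.42, 13.81 and 13.39 in Brown Norway lungs, against 11.83, 12.01 and 11.80 in Lewis lungs, again without overlap (1.88, SE 0.17). Its difference had the opposite sign at PN7, where it was -0.73 (adjusted p = 0.00211). Tsc22d3, which encodes the anti-inflammatory protein GILZ, read 13.88, 13.09, 13.23, 13.04 and 13.25 in Brown Norway lungs, against 12.17, 12.23 and 12.28 in Lewis lungs and differed by 1.07 (adjusted p = 0.000163). Sult1a1, a sulfotransferase gene, differed by 1.74 at PN1 and by 1.28 at PN7, so part of its difference was shared with a later age. Sgk1, a kinase gene of the same response, was not called, at 14.28, 13.81, 13.51, 14.33 and 13.53 in Brown Norway lungs, against 13.98, 14.07 and 13.88 in Lewis lungs. With a model of the 8 arrays alone 6 genes of the list were higher. The list mean was 12.1 ± 0.49 in Brown Norway PN1 lungs and 11.2 ± 0.06 in Lewis PN1 lungs (SD, n = 5 and 3), and 10.9 ± 0.11 in Fisher PN1 lungs (SD, n = 4). Corticosterone levels were not analysed here.

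**Figure D4:**
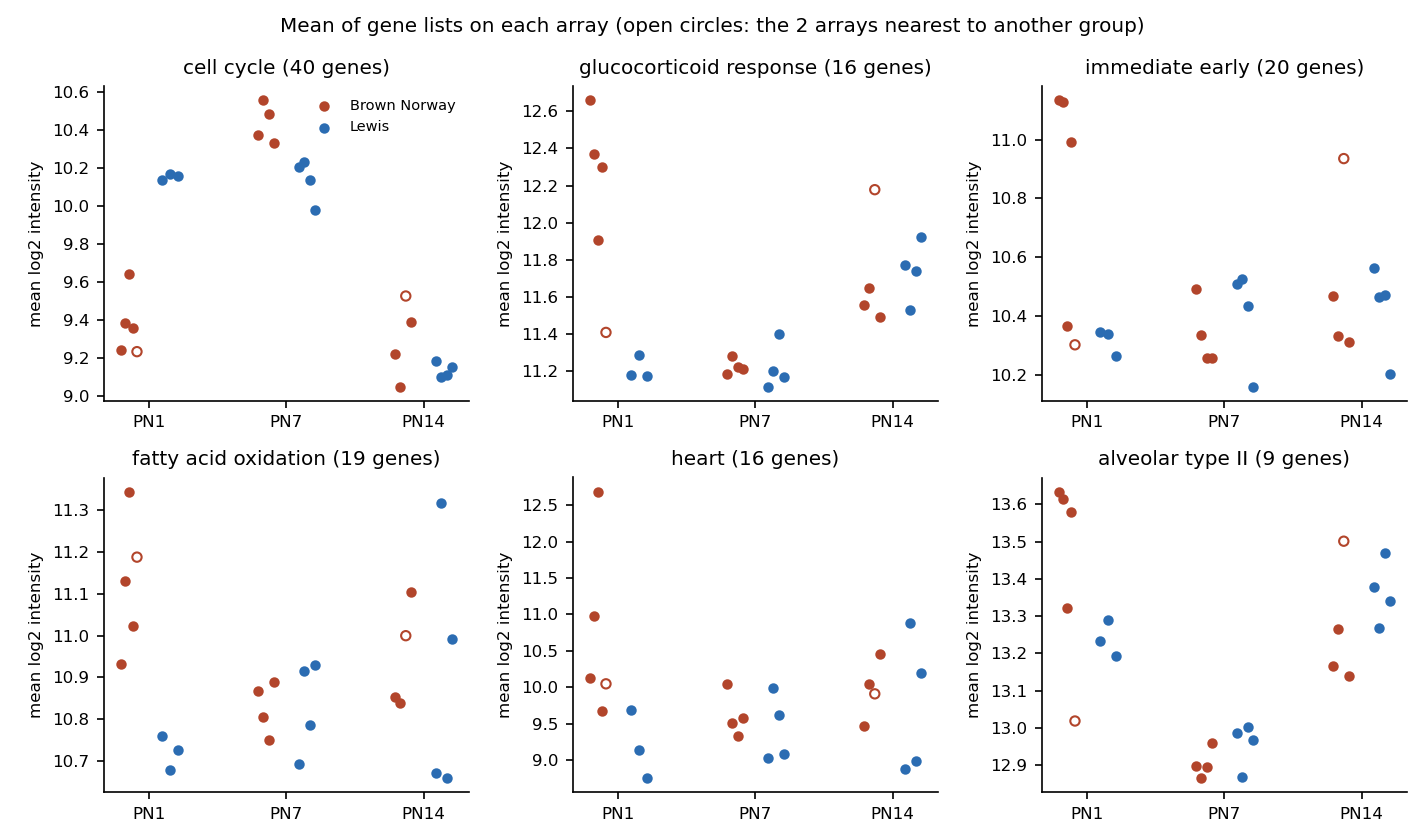
Mean log2 intensity of 6 gene lists on each Brown Norway and Lewis array by age (points, arrays; open circles, the 2 Brown Norway arrays that lay in each other's group). At PN1 the cell cycle mean was 9.23 to 9.64 in Brown Norway against 10.14 to 10.17 in Lewis, and the glucocorticoid mean was 11.41 to 12.66 against 11.17 to 11.28.

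Immediate early genes, transcribed within minutes of a stimulus, were also higher, on 3 of the 5 Brown Norway arrays above all. Of 20 tested, 9 were higher and 1 lower with all arrays, and 14 were higher and 1 lower without replicate 5. Fos, a subunit of the transcription factor AP-1, read 11.29, 11.41, 8.77, 10.69 and 8.46 in Brown Norway lungs, against 8.56, 8.65 and 8.47 in Lewis lungs. Replicates 1, 2 and 4 were far above Lewis, while replicates 3 and 5 lay beside Lewis, and the difference was 1.56 (SE 0.45, adjusted p = 0.0081). Zfp36, which encodes an mRNA decay factor, read 13.90, 13.37, 12.27, 14.07 and 12.36 in Brown Norway lungs, against 11.87, 12.19 and 11.72 in Lewis lungs, with the same arrays high, a difference of 1.27 and no overlap. Junb (0.95) and Klf6 (0.80) were higher as well, and the groups of both overlapped. The Klf6 call was lost without Brown Norway replicate 1, 2 or 4 or any Lewis array (adjusted p 0.0613 to 0.0893). Against the later ages 2 genes of the list were more positive, or 13 without both arrays that lay in each other's group. The list mean was 11.13, 11.13, 10.37, 10.99 and 10.3 in Brown Norway and 10.34, 10.34 and 10.26 in Lewis. The calls depended on the spread borrowed from the other groups and on single arrays: 5 genes were higher without Lewis replicate 1 or without Lewis replicate 2, and 1 was higher in a model of the 8 arrays alone or of the 7 arrays of slide 1 alone.

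Among clock genes, of 12 tested, 4 were higher and 0 lower, or 7 higher without replicate 5. Apart from Per1 they included Bhlhe40, a repressor of the clock (1.00, adjusted p = 0.0192), and Tef, an activator driven by the clock (0.74, adjusted p = 0.0006). Nfil3, which represses the targets of Tef, read 11.40, 13.04, 11.23, 11.33 and 9.28 in Brown Norway lungs, against 10.09, 10.25 and 10.01 in Lewis lungs. Bhlhe40 was not called without Brown Norway replicate 2 or Lewis replicate 3 (adjusted p 0.0708 and 0.0733). Nfil3 was called without replicate 5 (1.63, adjusted p = 0.00189) and not with it (1.14, adjusted p = 0.0705). The labels used here give no time of day for the collection of the lungs.

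Some fatty acid oxidation genes were higher in Brown Norway at PN1, while other lipid genes were mixed. Of 19 tested fatty acid oxidation genes, 8 were higher and 0 lower, with a median difference of 0.39. Acadm, the medium-chain acyl-CoA dehydrogenase gene, read 12.86, 12.82, 12.86, 12.80 and 13.07 in Brown Norway lungs, against 12.13, 12.21 and 12.27 in Lewis lungs, a difference of 0.68 (SE 0.13, adjusted p = 0.000134) without overlap. Decr1, needed to oxidise unsaturated fatty acids (0.71), and the fatty acid transporter gene Cd36 (0.61) were higher too. Markers of heart, a muscle that burns fatty acids, differed beside this list. The mean of 16 heart markers was 10.12, 10.98, 12.68, 9.67 and 10.05 in Brown Norway against 9.69, 9.13 and 8.75 in Lewis, and the part of heart RNA in the result was not tested. The fatty acid oxidation mean was 10.93, 11.13, 11.34, 11.02 and 11.19 in Brown Norway against 10.76, 10.68 and 10.73 in Lewis. Replicate 3 had the highest mean of both lists. Fat markers were high on replicate 5, where their mean over 9 genes was 10.61, against 9.05 to 9.43 on the other Brown Norway arrays and 9.12 to 9.17 on the Lewis arrays. Ucp1, the uncoupling protein of brown fat, chosen after its values were seen, read 8.05, 9.07, 8.76, 8.09 and 14.16 in Brown Norway lungs, against 8.12, 8.14 and 8.11 in Lewis lungs. Without replicate 5 the list had the same counts, 8 higher and 0 lower, with a median difference of 0.35. Of 13 cholesterol synthesis genes limma called 8 higher and 0 lower without replicate 5, and 0 in either direction with it, where 4 had an unadjusted p under 0.05. Fdps, which makes farnesyl diphosphate, read 11.12, 10.70, 11.19, 10.64 and 9.65 in Brown Norway lungs, against 9.94, 10.13 and 9.94 in Lewis lungs. Replicate 5 lay below all Lewis arrays and the other 4 above them, giving 0.91 without replicate 5 (adjusted p = 0.00246) and 0.66 with it (adjusted p = 0.0578). In the list of fatty acid and phospholipid synthesis 2 of 12 genes were higher and 2 lower, with a median difference of -0.00092. Scd, the desaturase that makes oleate, was lower, with a difference of -1.39 (adjusted p = 0.00768, but 0.0596 without Lewis replicate 2). Plin2, which coats the lipid droplets of lung lipofibroblasts, read 12.48, 12.53, 12.85, 12.95 and 12.54 in Brown Norway lungs, against 13.51, 13.63 and 13.50 in Lewis lungs and was lower in Brown Norway, with a difference of -0.88 (SE 0.11) and no overlap. Of 30 tested oxidative phosphorylation genes 3 were higher and 2 lower, with a median difference of 0.00084, shares below those over all tested probes.

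Chaperone genes were called in both directions, beside 17.7% lower and 13.3% higher over all tested probes. Of 14 tested genes of endoplasmic reticulum stress, 7 were lower and 3 higher, with a median difference of -0.17. Creld2, induced when proteins misfold in this compartment, read 10.54, 9.91, 10.17, 10.28 and 9.69 in Brown Norway lungs, against 11.55, 11.20 and 11.60 in Lewis lungs, a difference of -1.33 (SE 0.14, adjusted p = 3.05e-08) with no overlap. Hspa5, the main chaperone there, read 14.42, 14.28, 14.34, 14.39 and 14.14 in Brown Norway lungs, against 15.08, 14.66 and 14.98 in Lewis lungs and differed by -0.60. At PN7 both had the opposite sign, at 0.46 and 0.49. Ddit3, the stress transcription factor also named CHOP, differed by -0.81, and the lectin chaperone gene Canx by -0.81. In the heat shock list 4 of 11 genes were lower and 2 higher, with a median difference of -0.28. Dnaja1, an Hsp70 partner, read 13.15, 13.11, 13.07, 13.31 and 13.22 in Brown Norway lungs, against 14.15, 13.86 and 13.88 in Lewis lungs, with a difference of -0.79 (SE 0.07), and Hspb1 and Chordc1 differed by -0.77 and -0.72, while Dnajb4 was higher by 0.71. The Dnajb4 call was lost without Brown Norway replicate 2, 3 or 4 or any Lewis array (adjusted p 0.0749 to 0.138).

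Antioxidant and detoxifying genes were mixed, with 10 of 35 higher and 6 lower and a median difference of 0.13. Over all tested probes 13.3% were higher and 17.7% lower, so the share lower was near that of all probes. In the list 12 were more positive and 2 more negative than at the later ages, beside 6.44% and 10.5% over all tested probes. Gpx2, a glutathione peroxidase gene of epithelia, read 12.08, 11.66, 11.82, 11.93 and 11.35 in Brown Norway lungs, against 10.91, 10.75 and 10.76 in Lewis lungs. Its groups were apart by 0.96 (SE 0.13, adjusted p = 2.11e-06), against 0.09 at PN7 and -0.09 at PN14. The secreted peroxidase gene Gpx3 (0.91) and the quinone reductase gene Nqo1 (0.64) were also higher. Of the hypoxia genes other than Bnip3, the prolyl hydroxylase gene P4ha1 differed by -0.67 and Ankrd37 by 0.42. In all 5 of the 15 tested were higher and 1 lower, beside the same 13.3% and 17.7% over all tested probes. Ankrd37 was not called without Brown Norway replicate 2 or any Lewis array (adjusted p 0.0531 to 0.0727).

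Genes of the matrix that carries the new septa differed in both directions. The elastic fibre and collagen list had 6 of 29 tested genes lower and 2 higher with a median difference of -0.08, or 13 and 2 without replicate 5. With all arrays that is near the 17.7% of all tested probes called lower. Without replicate 5 the share lower was well above the 20.3% of all tested probes and the share higher below the 16.4%, with a median of -0.12. Col3a1, the chain of type III collagen, read 13.91, 14.02, 14.03, 13.86 and 15.09 in Brown Norway lungs, against 12.78, 12.62 and 12.56 in Lewis lungs, higher by 1.53 (SE 0.21) and also by 1.31 at PN7 and 0.93 at PN14. Sparc, a collagen-binding protein gene, read 13.72, 13.75, 13.62, 13.85 and 14.86 in Brown Norway lungs, against 14.74, 14.78 and 14.64 in Lewis lungs. Replicate 5 was above Lewis and the other 4 Brown Norway arrays below it, and the difference was -0.76 with replicate 5 and -0.99 without it. Fbln5, needed to assemble elastic fibres, had the same pattern at -0.63 and -0.88, though it was not called without Brown Norway replicate 1 or Lewis replicate 2 or 3 (adjusted p 0.0616 to 0.0734). Col15a1, a collagen gene of basement membranes, was called without replicate 5 and not with it (-1.06, adjusted p = 0.00737, against -0.58, adjusted p = 0.301). Dpt, which encodes the matrix protein dermatopontin, read 11.92, 12.74, 13.21, 12.94 and 14.78 in Brown Norway lungs, against 14.68, 14.62 and 14.70 in Lewis lungs, again with replicate 5 apart, and differed by -1.97 without it and by -1.55 with it. Eln, the elastin gene, read 14.53, 14.54, 13.83, 14.16 and 15.74 in Brown Norway lungs, against 14.27, 14.004 and 13.83 in Lewis lungs and was not called with replicate 5 (adjusted p = 0.201) or without it (adjusted p = 0.534). Col1a1, for type I collagen, differed by 0.07 with replicate 5 and by -0.19 without it, neither called. Nrep, expressed in regenerating tissue and myofibroblasts, read 10.36, 11.41, 11.996, 11.76 and 11.79 in Brown Norway lungs, against 13.48, 13.53 and 13.13 in Lewis lungs, a difference of -1.91 (SE 0.27, adjusted p = 3.09e-06). Crabp1, a retinoic acid binding protein gene of embryonic mesenchyme, read 8.53, 9.33, 9.56, 9.30 and 8.60 in Brown Norway lungs, against 10.89, 10.92 and 10.83 in Lewis lungs. The Crabp1 groups were apart by -1.82 at PN1, while 0.28 at PN7 and 0.49 at PN14 were not called.

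Among the signals that shape the lung, 4 of 36 tested genes were higher and 6 lower, shares near those over all tested probes. Without replicate 5 there were 6 and 10, the share lower being above the 20.3% of all tested probes. Sox4, a transcription factor of immature tissue, read 8.59, 9.004, 9.10, 9.10 and 9.67 in Brown Norway lungs, against 10.46, 10.20 and 10.27 in Lewis lungs, a difference of -1.22 (SE 0.16) with no overlap. Gata5, a transcription factor of lung mesenchyme and heart in the embryo, read 9.16, 8.89, 9.52, 9.45 and 11.07 in Brown Norway lungs, against 11.40, 11.66 and 11.30 in Lewis lungs. All Brown Norway arrays lay below Lewis with replicate 5 the nearest, and Gata5 differed by -1.84 with it and by -2.20 without it. Fgfr4, a fibroblast growth factor receptor gene expressed in septating lung, was called without replicate 5 (-1.09, adjusted p = 0.000346) and not with it (-0.72, adjusted p = 0.0728). Igf2, a fetal growth factor gene, read 14.86, 15.01, 15.03, 14.27 and 12.31 in Brown Norway lungs, against 13.65, 13.54 and 13.37 in Lewis lungs. The first 4 Brown Norway arrays lay above Lewis and replicate 5 below, with a difference of 1.27 without replicate 5 (adjusted p = 0.0442) and 0.78 with it (adjusted p = 0.305). Igfbp6, which binds that factor, differed by 1.44 at PN1, by -0.33 at PN7 and by -0.96 at PN14, and was among the named genes most above their later difference. Of these, the amine oxidase gene Aoc3 differed by 1.39 at PN1 and -0.95 at PN14. Wfdc21 read 12.15, 12.21, 12.48, 11.45 and 8.86 in Brown Norway lungs, against 9.69, 9.05 and 8.74 in Lewis lungs, with 4 Brown Norway arrays high and replicate 5 in the Lewis range. Its test against the later ages did not pass without Brown Norway replicate 1, 2 or 3 or Lewis replicate 2 or 3 (adjusted p 0.068 to 0.117). Apoe, for the lipid carrier apolipoprotein E, was higher at PN1 (0.98, adjusted p = 0.0118, or 0.0522 without Lewis replicate 3) and lower at PN14 (-1.34, adjusted p = 0.00131).

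**Figure D5:**
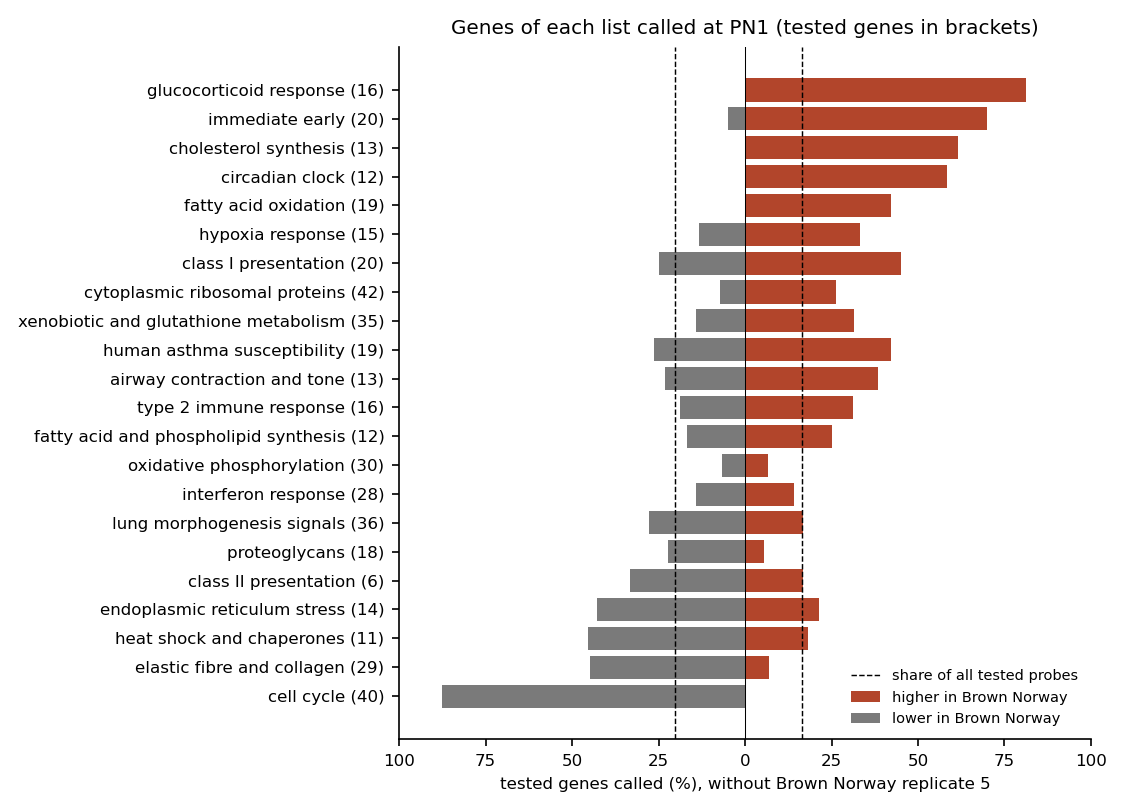
Share of the tested genes of each list called lower (left of 0) or higher (right of 0) in Brown Norway PN1 lungs without replicate 5, in percent of the genes tested. Dashed lines mark the share over all tested probes, 20.3% lower and 16.4% higher, and cell cycle, with 35 of 40 lower, and glucocorticoid response, with 13 of 16 higher, lie furthest from them.

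In the immune lists, class I presentation had 9 of 20 tested genes higher and 4 lower, with a median difference of 0.07. Besides RT1-CE16 and RT1-A1 these included RT1-T24-4 (1.44) and RT1-S3, which read 11.03, 11.01, 10.65, 10.89 and 11.34 in Brown Norway lungs, against 9.37, 9.60 and 9.82 in Lewis lungs. Transcripts of this family are close in sequence and differ between strains, so which member a probe reports is uncertain. Cd74, the invariant chain of class II molecules, read 10.30, 11.12, 10.80, 11.11 and 11.61 in Brown Norway lungs, against 11.73, 11.75 and 11.44 in Lewis lungs. It was lower (-0.65, adjusted p = 0.00441), with Brown Norway replicate 5 inside the Lewis range, and the class II chaperone gene RT1-DMb differed by -0.53. Of 28 interferon response genes 3 were higher and 3 lower, shares below those over all tested probes. Ifi47, an interferon-inducible GTPase gene, was detected on 0 of 5 Brown Norway arrays and read 8.06, 8.03, 8.05, 8.06 and 8.14 in Brown Norway lungs, against 9.26, 9.31 and 9.36 in Lewis lungs, at least 2.22-fold lower. Ifitm3, which blocks virus entry, was higher at PN1 by 0.60 and not called at PN7 (-0.14) or PN14 (0.02).

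Markers of macrophages and monocytes moved in both directions, with 5 of 17 higher and 5 lower and a median difference of -0.02. C1qc, a chain of complement C1q made by tissue macrophages, read 10.56, 10.82, 10.88, 10.17 and 9.35 in Brown Norway lungs, against 9.31, 9.56 and 9.45 in Lewis lungs. The first 4 Brown Norway arrays lay above Lewis and replicate 5 beside it (0.92, SE 0.20). Ly6c, a marker of monocytes, read 8.65, 8.61, 8.47, 8.46 and 9.25 in Brown Norway lungs, against 10.03, 10.01 and 10.12 in Lewis lungs, a difference of -1.37 without overlap, with -2.14 at PN14. Fcgr3a, an Fc receptor gene, was lower (-1.37, SE 0.27). The mean over the whole list lay between 9.5 and 9.85 in Brown Norway and between 9.78 and 9.82 in Lewis. Of 11 neutrophil markers 1 was higher and 0 lower with all arrays, and 5 were higher without replicate 5. Their mean was 9.44, 9.93, 9.41, 9.87 and 8.71 in Brown Norway and 9.29, 9.21 and 9.23 in Lewis. Lcn2, for the iron-binding protein lipocalin 2, read 13.31, 12.97, 12.06, 12.85 and 10.50 in Brown Norway lungs, against 11.70, 11.55 and 11.81 in Lewis lungs. Replicate 5 lay below Lewis and the other 4 Brown Norway arrays above it, and Lcn2 was called without replicate 5 (1.11, adjusted p = 0.0094).

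Lists tied to asthma held few large differences. In the type 2, asthma susceptibility and airway tone lists the share higher with all arrays was above the 13.3% of all tested probes. The share lower with all arrays was below the 17.7% of all tested probes. Without replicate 5 the shares over all tested probes were 16.4% and 20.3%. The share higher was then above 16.4% in all these lists. The share lower was above 20.3% in the asthma susceptibility and airway tone lists and below it in the type 2 list. The cytokine genes Il4 and Il13 were detected on 0 of 36 arrays. Il33, an alarmin of lung epithelium that drives type 2 responses, read 11.11, 10.71, 10.59, 11.32 and 11.89 in Brown Norway lungs, against 11.24, 11.37 and 11.67 in Lewis lungs. The groups overlapped, and Il33 was not called with all arrays (-0.30, adjusted p = 0.268), while without replicate 5 it was lower (-0.49, SE 0.17, adjusted p = 0.0246). Of 16 tested genes of the type 2 response, 4 were higher and 0 lower, or 5 and 3 without replicate 5. Chi3l1, for a chitinase-like protein, read 11.21, 11.10, 10.12, 10.78 and 9.81 in Brown Norway lungs, against 9.76, 9.80 and 9.81 in Lewis lungs, higher by 0.81 (SE 0.23, adjusted p = 0.00696), with replicate 5 level with Lewis. Arg1, for arginase 1, was dim and higher by 0.35, and Retnla, another gene of alternatively activated macrophages, was called without replicate 5 (0.76, adjusted p = 0.0263). In the list of human asthma susceptibility genes 8 of 19 were higher and 2 lower, or 8 and 5 without replicate 5, among them the endotoxin receptor gene Cd14 (0.57) and the glutathione transferase gene Gstt1 (-0.41). Cd14 was not called without Brown Norway replicate 1, 3 or 4 or any Lewis array (adjusted p 0.0576 to 0.0911). Genes of airway contraction and tone had 5 of 13 higher and 1 lower, with a median difference of 0.09. Without replicate 5 there were 5 higher and 3 lower, with a median of 0.02. The adenosine receptor gene Adora2b read 9.20, 8.90, 9.83, 9.14 and 8.55 in Brown Norway lungs, against 8.48, 8.53 and 8.48 in Lewis lungs, higher by 0.63 (adjusted p = 0.00161), and the angiotensin receptor genes Agtr1a and Agtr2 were higher by 0.37 and 0.44. The Agtr1a call was lost without Lewis replicate 1 (adjusted p = 0.0572) and the Agtr2 call without Brown Norway replicate 2 or 3 or any Lewis array (adjusted p 0.0607 to 0.0921). Of mast cell and eosinophil genes other than Kit, Gata2 was higher by 0.66. In that list 1 of the 11 tested was higher and 1 lower, shares below those over all tested probes.

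Some epithelial markers were called, beside 13.3% higher and 17.7% lower over all tested probes, or 16.4% and 20.3% without replicate 5. Type II cell markers had 2 of 9 higher and 0 lower with a median difference of 0.11, or 3 and 0 with a median of 0.34 without replicate 5. Their mean was 13.63, 13.61, 13.32, 13.58 and 13.02 in Brown Norway, against 13.23, 13.29 and 13.19 in Lewis, with replicate 5 below Lewis and the other 4 Brown Norway arrays above it. Against the later ages 1 of the 9 alveolar type II genes was more positive, or 6 without both arrays that lay in each other's group. The 2 called with all arrays were Cd36 and the protease gene Ctsh, which processes surfactant protein B (0.41, adjusted p = 0.0239). Without Brown Norway replicate 1, 2 or 4 or Lewis replicate 1 or 3, Ctsh was not called (adjusted p 0.0509 to 0.0893). None of the 3 surfactant protein genes was called at PN1, at 0.07 (SE 0.13) for Sftpa1, 0.01 (SE 0.18) for Sftpb and -0.16 (SE 0.11) for Sftpc. Sftpa1 was lower in Brown Norway at PN7 (-0.62) and PN14 (-0.90), and the test against the later ages passed (adjusted p = 0.000394). Type I cell markers had 4 of 16 higher and 2 lower, the share lower being below that over all tested probes. Aqp5, the water channel of type I cells, read 8.90, 9.10, 8.69, 9.04 and 10.57 in Brown Norway lungs, against 10.51, 10.58 and 10.34 in Lewis lungs. The first 4 Brown Norway arrays lay below Lewis and replicate 5 within it, and the differences were -1.22 at PN1 and -1.52 at PN14. The keratin gene Krt7 was higher by 0.78 and the type I cell gene Gprc5a by 0.62. Of 13 ciliated cell genes 3 were lower and 1 higher, the share higher being below that over all tested probes.

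Endothelial genes had 7 of 17 higher and 1 lower, with a median difference of 0.08. Without replicate 5 there were 7 higher and 4 lower, with a median of 0.04, beside 16.4% and 20.3% over all tested probes. Lyve1, a hyaluronan receptor of lymphatic vessels and some macrophages, read 12.14, 12.08, 11.91, 12.39 and 12.38 in Brown Norway lungs, against 10.86, 10.69 and 11.17 in Lewis lungs, higher by 1.27 (SE 0.13) and by 2.06 at PN7. Gpihbp1, which holds lipoprotein lipase on capillaries, read 9.18, 9.18, 9.34, 9.23 and 9.69 in Brown Norway lungs, against 8.30, 8.36 and 8.40 in Lewis lungs, and the angiopoietin receptor gene Tek differed by 0.61. The transcription factor gene Sox18 was lower without replicate 5 (-0.85, adjusted p = 0.03) and not called with it (adjusted p = 0.0647).

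Transcripts typical of heart and thymus were unevenly present among the arrays. Nppa, the atrial natriuretic peptide gene, read 11.38, 13.73, 15.16, 10.66 and 8.60 in Brown Norway lungs, against 8.29, 8.15 and 8.17 in Lewis lungs. It differed by 3.70 (SE 1.19, adjusted p = 0.018), and its Brown Norway arrays were spread widely, all above Lewis. The ventricular and stress gene Ankrd1 (2.11) and the troponin gene Tnnt2 (1.99) were also higher. Nppa was not called without Brown Norway replicate 2 or 3 or any Lewis array (adjusted p 0.0504 to 0.0564), and Tnnt2 without Brown Norway or Lewis replicate 2 or 3 (adjusted p 0.0638 to 0.202). In all 5 of 16 heart genes were higher and 0 lower, or 8 and 0 without replicate 5, with median differences of 1.68 and 1.77. Fisher PN1 lungs had a heart mean of 10.56 ± 1.17 (SD, n = 4), against 10.7 ± 1.21 in Brown Norway (SD, n = 5). On Brown Norway replicate 2 the thymus list averaged 9.21 and the T cell list 9.59, against at most 8.62 and 8.61 on the other Brown Norway arrays and at most 8.54 and 8.35 on the Lewis arrays. Of 17 red cell genes 3 were lower and 0 higher, a share near the 17.7% of all tested probes called lower. Hbb-b1, a beta globin gene, read 12.91, 13.70, 14.45, 12.93 and 14.75 in Brown Norway lungs, against 16.01, 16.11 and 15.67 in Lewis lungs, a difference of -2.18 (SE 0.33) without overlap, while the second beta globin probe, Hbb, sat at the top of the scale at 16.08, 16.10, 16.11, 16.08 and 16.11 in Brown Norway lungs, against 16.09, 16.09 and 16.10 in Lewis lungs. Beta globin genes are near copies whose number differs between rat strains, so the split between both probes is uncertain. Car2, the carbonic anhydrase gene of red cells and other tissues, read 11.97, 12.22, 12.52, 12.54 and 12.76 in Brown Norway lungs, against 13.43, 13.37 and 13.56 in Lewis lungs, a difference of -1.05 (SE 0.12, adjusted p = 5.28e-08).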

How the data were processed

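Total RNA of whole lungs was measured on 36 Illumina rat bead arrays. The authors deposited a table of non-normalised bead intensity with a detection p-value per probe, per the file headers, and normalised log2 values, used here as an alternative. A further 72 columns of per-sample values were not used. Intensities were background-corrected, quantile-normalised and put on a log2 scale with neqc (offset 16) of limma 3.58.1 in R 4.3.3. Of 22226 probes, 11339 were tested, those detected (p below 0.01) on 3 or more arrays. A single limma model gave each strain and age a mean, with Benjamini-Hochberg adjusted p-values over all tested probes and a threshold of 0.05. Of the tested probes 8115 have 1 gene name in the platform annotation. A fold given as "at least" sets the undetected group at the detection floor. The genes named are those of largest difference at PN1, with or without replicate 5, or against the later ages, up to 4 per gene list, and some fixed genes. The comparison, lists and rules were chosen with earlier results of these data known. The procedure was tested on simulated data. The number of arrays limits the precision.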

Additional observations from a re-analysis of the deposited data

Results flagged for a closer look

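On some genes 1 of the 5 Brown Norway PN1 arrays stood apart by Dixon's test. The genes were named for differences on these same arrays, and replicate 5 was known to resemble PN14, so the rate of about 1 in 20 groups that chance gives does not apply and the values are a description. The value given is the gap to the nearest array as a share of the group's range, and the limit for 5 arrays is 0.71. Replicate 5 was the highest for Cavin2 (0.714), Ly6i (0.876), Echdc2 (0.948), Pyroxd2 (0.795), Bphl (0.913), Gata5 (0.713), Aoc3 (0.902), Aqp5 (0.781), Col3a1 (0.859), Col15a1 (0.851), Sparc (0.817), Acadm (0.795), Ifi47 (0.712), Ly6c (0.759), Col1a1 (0.818) and, chosen for its value there, Ucp1 (0.833). It was the lowest for Wfdc21 (0.715), Igf2 (0.722) and Nqo1 (0.744). Replicate 3 was the highest for Kif22 (0.933), Cdk1 (0.741) and Spc25 (0.78) and the lowest for Tef (0.777). Replicate 1 was the highest for Agtr1a (0.825), Sftpa1 (0.732) and Tsc22d3 (0.748), and replicate 4 for Rpl30 (0.837).

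Among the means of 43 gene lists, 9 had an array apart, and the same limit on reading them holds. Replicate 5 was the highest for fatty acid and phospholipid synthesis (0.84), elastic fibre and collagen (0.748), B cell (0.906) and brown and white fat (0.758). It was the lowest for hypoxia response (0.783), cytoplasmic ribosomal proteins (0.857) and macrophage and monocyte genes (0.711). Replicate 2 was the highest for T cell (0.717) and thymus genes (0.893).

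For 58 named genes the Brown Norway minus Lewis difference at PN1 differed in limma from its mean at PN7 and PN14. Apart from some fixed genes, the named genes were chosen for large differences at PN1 or against the later ages on these same arrays. A high count was thus built in, and it cannot be compared with the 16.9% of all tested probes. The values are a description. Each value given is PN1 less the later ages, in log2, with both arrays that lay in each other's group included. The cell cycle genes were at -2.14 for Tpx2, -2.08 for Kif22, -2.07 for Cdk1, -2.04 for Kifc1, -1.99 for Rrm2, -1.96 for Spc25, -1.91 for Ccna2 and -0.58 for Mki67. Genes of the glucocorticoid, immediate early and clock lists were at 2.60 for Ddit4, 2.30 for Klf9, 2.04 for Per1, 1.83 for Fos, 1.46 for Zfp36, 1.33 for Tsc22d3, 1.27 for Bhlhe40, 1.02 for Tef and 0.83 for Sult1a1. Stress and metabolic genes were at -1.44 for Creld2, -0.81 for Hspa5, -0.65 for Ddit3, -0.77 for Dnaja1, -0.70 for Chordc1, -0.50 for P4ha1, 1.13 for Bnip3, -0.70 for Plin2, 0.61 for Acadm, 0.54 for Decr1, 0.96 for Gpx2, 0.88 for Gpx3 and 0.72 for Nqo1.

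Genes of matrix, growth and lung cell types were at -2.20 for Crabp1, -1.61 for Nrep, -1.30 for Gata5, -0.66 for Sox4, -0.72 for Fbln5, 2.08 for Igfbp6, 2.09 for Apoe, 2.07 for Wfdc21, 2.04 for Aoc3, 0.83 for Sftpa1, 0.72 for Gprc5a, 0.67 for Krt7, 0.56 for Tek and 0.68 for Adora2b. Immune and red cell genes were at 1.07 for Chi3l1, 0.88 for RT1-S3, 0.46 for RT1-T24-4, 0.85 for C1qc, 0.66 for Ly6i, 0.66 for Ifitm3, -0.25 for Ifi47, 0.61 for Gata2 and -1.30 for Car2. Of genes that kept their sign at every age, the PN1 difference was still further from 0 than at the later ages for Pyroxd2 (-0.64), Itga4 (-0.36), Bcas2 (0.62) and Zcchc9 (0.28). Qrfpr (-0.71) and Ifi47, detected on 0 of 5 Brown Norway PN1 arrays, have a fitted value that does not measure how the strain gap changed with age.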

How the results depend on the processing

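The alternatives were settled with earlier results of these data known. The count of cell cycle genes lower in Brown Norway lay between 29 and 35 under every alternative run, and that of those lower against the later ages between 32 and 37. Leaving out 1 array at a time gave 2622 to 4165 called probes at PN1, 1296 to 2577 against the later ages, 9 to 13 glucocorticoid genes and 5 to 14 immediate early genes. The PN1 count of 3511 was 1477 with median scaling (858 higher and 619 lower, 58.1% higher against 43% with quantile normalisation) and 1386 with the 8 arrays alone (32.5% higher). The count against the later ages, 1916, was 3258 without both arrays that resemble another group, 484 with median scaling (23.6% more positive against 38.1%) and 2960 with array weights. The 8 arrays alone gave 6 glucocorticoid genes in place of 10. The 9 immediate early genes became 14 without both arrays, with the slide as a block, with the slide as a block and without replicate 5, and with array weights, and 1 with the 8 arrays or the 7 arrays of slide 1 alone. With the replicate number as a block there were 15, with 4089 probes called at PN1 and 2565 against the later ages. Brown Norway replicate 5 has a number no Lewis array shares, so that block amounts to leaving it out. Same-numbered Brown Norway and Lewis arrays correlated at 0.11, 0.15 and -0.13 in their deviations from the group means, so the numbers were not taken to pair samples.

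Of the results on single genes, 120 kept their sign under every alternative and 72 also their side of the threshold. The results that changed sign under an alternative were not called in the fit reported. With median scaling Scgb1a1 had 0.24, Sftpc 0.045 and Sgk1 0.13. Leaving out 1 array gave Sftpa1 -0.033 without Brown Norway replicate 1, Sftpb -0.085 to 0.18 (below 0 without Brown Norway replicate 1, 2 or 4 or Lewis replicate 3), Col1a1 -0.19 to 0.16, Sgk1 up to 0.014 (without Brown Norway replicate 3) and Hbb -0.0011 to 0.0059. Without replicate 5 Col1a1 had -0.19, Sgk1 0.010 and Hbb -0.0011, and the values were the same without both arrays, with the slide block added and on slide 1 alone. Col1a1 had -0.11 with the slide block and -0.20 with the replicate block, where Sgk1 had 0.013. Array weights gave Col1a1 -0.11, Sgk1 0.075 and Hbb -0.0030. The cause was not tested. Signal limits results whose lower group lay near background, among them Ifi47, Qrfpr, Echdc2, RT1-CE16, Mki67, Mrpl18, Ly6i, Nppa and Gpihbp1. It also limits Hbb and Scgb1a1, near the top of the scale.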
